A study of Homo sapiens with 8 samples.

Results

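In all, 8 cadherin genes were followed across the libraries: CDH1, CDH2, CDH3, CDH4, CDH5, CDH6, CDH11 and CDH13. They are 8 of the 17131 genes in the expression table. CDH5 was selected on the difference between the library groups that is described here, since it had one of the larger rises in earlier results of these data, and the other 7 were chosen by family name. The levels and fold changes of the 8 genes are therefore given as a description, with no p-value for any of them, and nothing is read from how many of them differed.

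The RNA came from HaCaT, an established and spontaneously immortalised line of human keratinocytes, the main cells of the epidermis, so each library represents 1 cell line and no donor tissue. The cells had been stimulated with M5, a mixture of 5 inflammatory cytokines at 10 ng/mL each for 24 h that is used as a culture model of psoriatic keratinocytes. The comparison concerns OTS514, an inhibitor of the kinase TOPK, which by the study's methods was given at 10 nM for 12 h and then together with M5, whereas the design text in the repository has M5 first and the inhibitor after it, for 24 h. Every library carried the M5 stimulation, all were entered as wild type, and no unstimulated culture was analysed here. There were 4 libraries titled M5_O5 and 4 titled M5. The titles read as M5 plus OTS514 and M5 alone, but the treatment field runs the other way: it lists none for the M5_O5 libraries and the inhibitor for the M5 libraries. The groups are named by title throughout, and every direction below is between titles and not between inhibitor and no inhibitor. Nothing in the labels says whether the numbered libraries came from separate cultures, so p-values measure only the spread between these libraries, which may be technical.

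Total estimated counts ran from 13708055 to 16922693 per library. M5 replicate 1 had the lowest total and stood apart from the other M5 libraries, with a chi-square per gene of 10.2 to 16.2 in its pairs against 2.01 to 4.01 in the others. Within M5_O5, pairs with replicate 1 gave 7.15 to 11.1 and the others 3.02 to 7.15. Fold changes with and without M5 replicate 1 are given for CDH1, CDH3, CDH5, CDH13, CTNNB1, ITGA5 and PTPRB. All 10 keratinocyte markers were expressed in every library, led by KRT17, a keratin of activated keratinocytes, at 5709 to 7297 TPM, a per-million transcript abundance corrected for length.

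Cadherins are membrane proteins that hold neighbouring cells together through calcium-dependent binding between their outer domains. The cytoplasmic tail of a classical cadherin binds p120-catenin and beta-catenin or plakoglobin, and alpha-catenin links that complex to actin. E-cadherin and P-cadherin, the products of CDH1 and CDH3, are the classical cadherins of epidermal keratinocytes, whereas VE-cadherin, the product of CDH5, is best known from the junctions of blood vessel endothelium. CDH1, CDH2, CDH3 and CDH4 are type I cadherins, and CDH5, CDH6 and CDH11 are type II. CDH13 encodes T-cadherin, which is held in the membrane by a lipid anchor and has no cytoplasmic tail, so it belongs to the family without being a classical cadherin in the strict sense.

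Promoter sequence from RefSeq (build GRCh38.p14) was at hand for 2 of the 8 genes, CDH2 and CDH4, each with 2 listed start sites. The CDH2 windows are shown because CDH2 had the larger difference of these 2 genes, and because its reads were divided over several transcript models. Each window holds the 250 bases before a start on the minus strand of chromosome 18, written 5′ to 3′, and capitals mark an E-box, CANNTG, the 6-base element that SNAI, ZEB and helix-loop-helix factors can bind and that matches on both strands alike. The outer window lies at chr18:28177131-28177380 and the inner one at chr18:28036642-28036891.
CDH2, outer start: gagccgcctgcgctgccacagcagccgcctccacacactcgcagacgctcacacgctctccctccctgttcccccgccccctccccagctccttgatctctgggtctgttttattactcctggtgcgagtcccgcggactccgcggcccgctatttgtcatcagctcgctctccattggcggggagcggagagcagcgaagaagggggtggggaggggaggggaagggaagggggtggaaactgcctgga
CDH2, inner start: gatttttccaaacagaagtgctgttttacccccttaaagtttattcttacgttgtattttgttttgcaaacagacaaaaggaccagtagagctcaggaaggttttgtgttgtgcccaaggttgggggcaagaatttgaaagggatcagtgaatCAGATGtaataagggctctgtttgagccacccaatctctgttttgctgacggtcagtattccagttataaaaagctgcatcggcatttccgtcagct
The outer window held no CANNTG and 17 CG dinucleotides, and the inner window held 1 CANNTG, beginning 97 bases before the start, and 4 CG dinucleotides. Of all 35116 promoter windows of this length, 61.8% held a CANNTG and the median number of CG was 11. The stricter form CAGGTG, searched on both strands and a special case of CANNTG, was in neither CDH2 window and in 17.5% of all windows. The CDH4 windows held 2 and 1 CANNTG, and the first of them also held 1 CAGGTG. CDH1, CDH3, CDH5, CDH6, CDH11 and CDH13 were not matched. These matches describe the letters in the windows, and the start sites in use in these cells were not analysed here.

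The keratinocyte cadherins made up nearly all cadherin transcripts. On the TPM scale, which corrects for transcript length and so allows genes to be compared, CDH3 had a mean level of 1229 over the 8 libraries and CDH1 a level of 201, a 6.10-fold difference between the means. CDH13 followed at 94.1, and the lowest CDH1 level in any library (191.66) lay above the highest CDH13 level (117). The CDH13 level depends on how its reads were divided over transcript models, as given below. CDH4, which encodes R-cadherin, known from retina and neural tissue, was at 3.42, a step of 27.5-fold below CDH13. CDH5 at 0.705 and CDH2 at 0.538 came next, and their ranges over libraries overlapped. CDH11 and CDH6 were at the edge of detection and also overlapped each other.

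**Figure D1:**
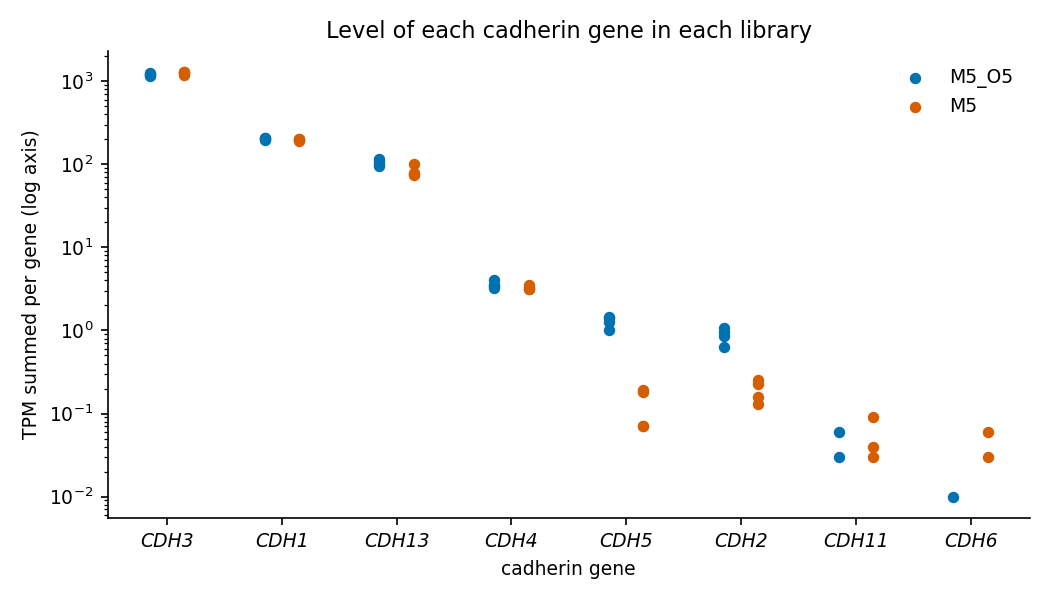
Level of each of the 8 cadherin genes in TPM summed over its transcripts, on a log axis, with 1 point per library (blue M5_O5, orange M5); libraries at 0 are not drawn. CDH3, CDH1 and CDH13 lie between 74.06 and 1296 TPM, while CDH5 and CDH2 lie below 1.5 TPM and are the 2 genes in which the groups lie farthest apart.

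Expressed as a share of the summed TPM of the 8 genes, CDH3 held 80.3% ± 1.76 (SD, n = 8), CDH1 13.2% ± 0.610 and CDH13 6.17% ± 1.17. The sum itself was 1477.5 to 1558.8 TPM in the M5_O5 libraries and 1490.5 to 1576.9 in the M5 libraries, so the ranges overlapped. CDH5, the gene with the largest fold change in the family, held a share of 0.0665 to 0.0924% in the M5_O5 libraries and 0.00444 to 0.0127% in the M5 libraries. CDH13 held 6.33 to 7.93% and 4.75 to 6.80%, the upper M5 value being that of M5 replicate 1.

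CDH5 had the largest difference between the groups among the 8 genes, on few reads. CDH5 (Entrez 1003) had 48, 42, 57 and 53 reads in M5_O5 replicates 1 to 4, and 6, 3, 7 and 3 reads in M5 replicates 1 to 4. In CPM (per-million counts, scaled by the trimmed mean of M-values), these were 2.79, 2.41, 3.38 and 3.15 against 0.438, 0.196, 0.461 and 0.187. All M5_O5 libraries lay above all M5 libraries, with a wide gap between the lowest of the first and the highest of the second. The group means were 2.93 ± 0.423 and 0.320 ± 0.149 CPM (SD, n = 4 each), so the M5 level was 11.0% of the M5_O5 level. The edgeR fit gave a log2 fold change of 3.18 (SE 0.28) for M5_O5 over M5, or 9.08-fold. Leaving out single libraries moved this value between 2.99 and 3.42, and without M5 replicate 1 it was 3.35. For scale, 3 reads, the upper limit that a count of 0 allows, amount to 0.172 to 0.219 CPM in these libraries, so M5 replicates 2 and 4 were at that limit. On the log2(TPM + 1) scale the same difference was 1.02, because the pseudocount exceeds the level of the gene in the M5 libraries. In M5 replicate 2 the 3 reads were assigned to the second, predicted transcript model of CDH5, whereas in the M5_O5 libraries they were assigned to the main one.

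CDH2 encodes N-cadherin, the cadherin of neurons and of many mesenchymal cells. CDH2 (Entrez 1000) had 26, 20, 35 and 40 reads in the M5_O5 libraries and 5, 5, 6 and 9 reads in the M5 libraries. In CPM these were 1.51, 1.15, 2.07 and 2.38 against 0.365, 0.327, 0.395 and 0.561. The groups did not overlap here either, but the M5_O5 libraries varied more among themselves than they did for CDH5. The means were 1.78 ± 0.552 and 0.412 ± 0.103 CPM (SD, n = 4 each), and the fitted log2 fold change was 2.08 (SE 0.31), or 4.22-fold, with 1.91 to 2.27 when single libraries were left out. Within the M5_O5 libraries CDH2 and CDH5 did not follow the same order: replicate 2 was lowest for both, while replicate 4 was highest for CDH2 and replicate 3 for CDH5. After the group means were removed, Pearson's r between CDH2 and CDH5 in log2 CPM was 0.14 over 8 libraries, which share their scaling factors.

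**Figure D2:**
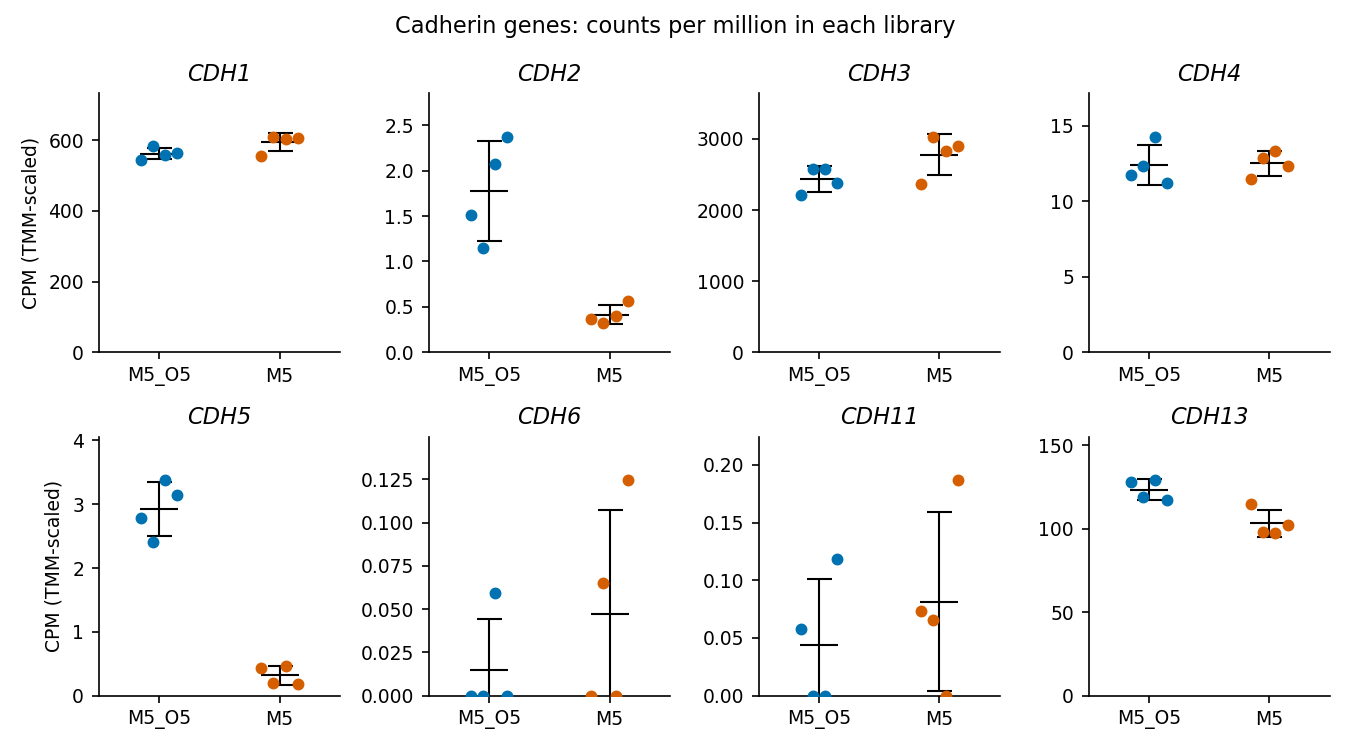
Scaled CPM of each cadherin gene (vertical axes, each from 0) in the 4 M5_O5 libraries (blue) and the 4 M5 libraries (orange), replicates 1 to 4 from left to right; bars are mean ± SD, and lower ends below 0 are not shown. CDH5, CDH2 and CDH13 show no overlap between groups, CDH1, CDH3 and CDH4 do overlap, and CDH6 and CDH11 rest on 0 to 3 reads.

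CDH13, the lipid-anchored T-cadherin, was the third gene whose groups did not overlap in CPM, on far more reads. Counts of CDH13 (Entrez 1012) were 2205, 2073, 2178 and 1976 in the M5_O5 libraries and 1573, 1499, 1481 and 1643 in the M5 libraries. In CPM these were 128, 119, 129 and 117 against 115, 97.9, 97.5 and 102, so that M5 replicate 1 came close to the lowest M5_O5 library. The means were 123 ± 6.04 and 103 ± 8.10 CPM (SD, n = 4 each), with a log2 fold change of 0.26 (SE 0.06) that became 0.31 without M5 replicate 1. In TPM the groups overlapped through the same library, which had 101 TPM against 96.2 in M5_O5 replicate 2.

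The other keratinocyte cadherins showed small differences in the other direction that depended on scaling. CDH1 (Entrez 999) ran from 544 to 584 CPM in the M5_O5 libraries and from 557 to 611 CPM in the M5 libraries, and the low end of the M5 range was again replicate 1. The means were 563 ± 16.6 and 595 ± 25.2 CPM (SD, n = 4 each), with a log2 fold change of -0.08 (SE 0.05). Without M5 replicate 1 that value was -0.11. Scaling by library size alone turned the CDH1 value positive, at 0.04, and so did the log2(TPM + 1) scale, at 0.05. These settings also moved the median of all genes from 0.01 to 0.13 and 0.12. CDH3 (Entrez 1001) had 2208, 2577, 2576 and 2381 CPM in the M5_O5 libraries and 2360, 3034, 2825 and 2898 CPM in the M5 libraries. Its groups overlapped through M5 replicate 1, and the log2 fold change of -0.19 (SE 0.08) was -0.26 without that library. CDH4 (Entrez 1002) was at 11.2 to 14.3 CPM over all libraries, with a log2 fold change of -0.01 (SE 0.10) whose sign also depended on scaling.

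CDH6 and CDH11, the kidney and osteoblast cadherins, were not fitted because of their low counts. CDH6 (Entrez 1004) had 0, 0, 1 and 0 reads in the M5_O5 libraries and 0, 1, 0 and 2 in the M5 libraries. CDH11 (Entrez 1009) had 1, 0, 0 and 2 reads and 1, 1, 0 and 3 reads. No difference was detectable at this depth for either gene.

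Of the 8 genes, 6 passed the filter on low counts and were fitted. At an adjusted p under 0.05, 19.5% of all 12434 genes tested were higher in M5_O5 and 17.6% were lower. A share of 2.87% passed and was at least 2-fold higher. No such call is given for the 6, because CDH5 was selected on this contrast. By non-overlap of CPM, 3 of the 6 (CDH2, CDH5 and CDH13) were above, against 17.8% of all genes, and 0 below, against 15.8%. The median log2 fold change of the 6 was 0.12, beside 0.01 over all genes tested. CDH5 was chosen on this same contrast and the family with its results known, so nothing is read from these counts. Scaling by library size alone moves the median of all genes from 0.01 to 0.13. It also raises each of the 6, such as CDH3 from -0.19 to -0.07, so 0.12 and 0.13 come from unlike scalings.

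**Figure D3:**
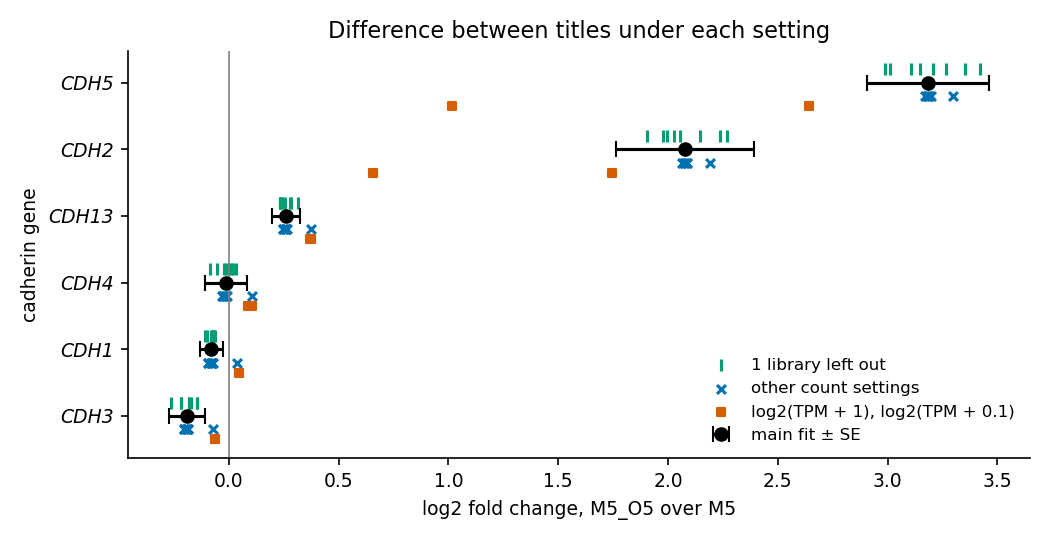
Log2 fold change of M5_O5 over M5 (horizontal axis) for the 6 fitted cadherin genes, with the main value ± SE in black, single libraries left out in green, other settings on counts in blue and the log2 TPM scales in orange. CDH5 and CDH2 stay on the right of 0 under each setting drawn and shrink on the log2(TPM + 1) scale, to 1.02 and 0.65, while CDH1 and CDH4 lie on both sides of 0.

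The libraries also varied together within groups. After group means were removed, CDH1 and CDH3 had Pearson's r = 0.92 in log2 CPM over 8 libraries, and CDH1 and CDH13 had r = -0.86. M5 replicate 1, with the lowest CDH1 and CDH3 and the highest CDH13 of its group, lies at the end of both relations, and all points share their scaling factors.

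Transcript models differed in how firmly they described the genes. For CDH1, 1 of 3 models held 98.6% of the TPM of the gene on average. For CDH3, 4 models held 65.2%, 25.9%, 6.79% and 2.03%, and the share of the third was 7.04 to 8.59% in the M5_O5 libraries and 5.24 to 6.29% in the M5 libraries. CDH13 was spread over 8 models, of which the largest held 45.2%. Models NM_001220491 and NM_001220492 held 20.8% and 17.7% of its TPM, on 49.6 to 165 and 29.9 to 122 estimated reads per library. By contrast, NM_001257 held 3.25% on 164 to 299 reads. The TPM level and share of CDH13 therefore rest in part on models with few reads. For CDH2 the assignment over 4 models swung between 0 and 100% from library to library, so no difference between its models was described. Of the 4 rows of CDH4, 3 stood for a further genomic placement of a transcript, held identical counts and carried 16.8% of its TPM each. Without such placements the log2 fold change of CDH4 was -0.03.

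The other classical cadherins mostly had few or no reads. Of 11 further family members, 8 were listed and 2 could be tested, and CDH9 had 0 reads in every library. CDH8, a type II cadherin known from neurons, rose from 1.70 ± 0.553 to 3.26 ± 0.20 CPM (SD, n = 4 each), a log2 fold change of 0.95 (SE 0.20, edgeR adjusted p = 0.00204), with 19 to 34 reads in the M5 libraries and 52 to 59 in the M5_O5 libraries. CDH24 was the exception in level, with 419 to 571 reads and 13.2 to 17.8 TPM, above CDH4 at 3.18 to 4.03 TPM. It did not pass, at 0.10 (SE 0.06, edgeR adjusted p = 0.249).

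Catenins, the cytoplasmic partners of the cadherin tail, were lower or did not pass the test. Of 9 catenin genes 6 were tested, 0 were higher, 3 were lower (50.0%) and 3 did not pass, beside 19.5% higher and 17.6% lower of all genes, with a median log2 fold change of -0.20, beside 0.01 over all genes. CTNND1, which encodes p120-catenin and keeps cadherins at the membrane, fell from 1241 ± 29.6 to 959.7 ± 37.4 CPM, a log2 fold change of -0.37 (SE 0.05, edgeR adjusted p = 1.54e-04). JUP, which encodes plakoglobin, fell by 0.32 on the log2 scale (SE 0.09, edgeR adjusted p = 0.0105), and CTNNA1, which encodes alpha-catenin, by 0.25 (SE 0.06, edgeR adjusted p = 0.00377). These 3 calls held under each alternative run. CTNNB1, which encodes beta-catenin, was at 324 ± 12.4 and 361 ± 27.6 CPM, a log2 fold change of -0.16 (SE 0.06, edgeR adjusted p = 0.0577), and it passed without M5 replicate 1, at -0.21 (edgeR adjusted p = 0.00287), and with DESeq2, at -0.17, but was at -0.02 on the TPM scales. CTNNA2, CTNNA3 and CTNND2, the catenins of neural, heart and testis tissue, had 0 reads in every library.

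Among 9 genes of actin linkers and nectins, the immunoglobulin-type partners of cadherin junctions, all were tested, 1 was higher (11.1%), 5 were lower (55.6%) and 3 did not pass, beside 19.5% higher and 17.6% lower of all genes, with a median log2 fold change of -0.25. NECTIN4 fell from 183 ± 10.2 to 129 ± 4.23 CPM, by 0.51 on the log2 scale (SE 0.06, edgeR adjusted p = 1.39e-05). NECTIN1 fell by 0.49 (SE 0.07, edgeR adjusted p = 1.96e-04) and AFDN, the actin-binding partner of nectins, by 0.45 (SE 0.05, edgeR adjusted p = 1.65e-05). LIMA1, an actin-binding protein of the cadherin complex, fell by 0.33 (SE 0.05, edgeR adjusted p = 2.28e-04). The gene that rose was AJUBA, a LIM protein of junctions, by 0.33 (SE 0.06, edgeR adjusted p = 0.00120), and the fifth that fell was TJP1, by 0.25 (SE 0.05, edgeR adjusted p = 0.00206). The TJP1 call was lost under some settings, with adjusted p up to 0.166.

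Genes that process or cleave cadherins moved in both directions: of 11 tested, 3 were higher (27.3%), 4 were lower (36.4%) and 4 did not pass, beside 19.5% higher and 17.6% lower of all genes, with a median of -0.10. FURIN, the protease that removes cadherin propeptides, fell from 463 ± 43.8 to 342 ± 12.2 CPM, by 0.44 on the log2 scale (SE 0.07, edgeR adjusted p = 2.08e-04). Of the subunits of gamma-secretase, which cuts the membrane stub of a shed cadherin, PSEN2 (0.53, SE 0.13, edgeR adjusted p = 0.00454) and APH1B (0.35, SE 0.09, edgeR adjusted p = 0.00704) went up. The subunits NCSTN, APH1A and PSENEN did not pass, at -0.03, -0.10 and -0.12 (edgeR adjusted p = 0.689, 0.214 and 0.288). NCSTN was at 133 CPM in M5_O5 and 136 in M5, against 10.8 and 7.43 for PSEN2. The metalloprotease ADAM15 rose by 0.30 (SE 0.06, edgeR adjusted p = 0.00260). ADAM10, the main sheddase of E-cadherin, and ADAM17 also fell, by 0.21 and 0.23, and both calls were lost under some settings, with adjusted p up to 0.583 and 0.275.

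Transcription factors known as repressors of CDH1 gave 1 gene higher, 1 lower (16.7% each) and 4 that did not pass among 6 tested of 9 listed, shares near the 19.5% and 17.6% of all genes. TCF4, a helix-loop-helix factor, rose from 1.24 ± 0.395 to 2.59 ± 0.270 CPM, a log2 fold change of 1.07 (SE 0.22, edgeR adjusted p = 0.00166), on 12 to 52 reads. TCF3 was at -0.20 (SE 0.06, edgeR adjusted p = 0.0180), and its call was lost when libraries were scaled by size alone, on the TPM scales and when any of 4 libraries (M5 replicates 2 and 4, M5_O5 replicates 2 and 4) was left out. SNAI2, a zinc finger repressor with 898 to 1196 reads, was at 0.03 (SE 0.08, edgeR adjusted p = 0.802). TWIST1 had at most 1 read and ZEB2 at most 2.

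Of 10 epithelial regulators, factors and splicing proteins that maintain the epithelial state, 0 were higher, 3 were lower (30.0%) and 7 did not pass, beside 19.5% higher and 17.6% lower of all genes. Of the 3 calls only that of ELF3 held under each alternative run. ELF3 fell by 0.32 on the log2 scale (SE 0.07, edgeR adjusted p = 0.00209), from 401 ± 30.3 to 321 ± 21.8 CPM. OVOL2 was at -0.31 (SE 0.11, edgeR adjusted p = 0.0441), a call lost when any single library was left out, with adjusted p up to 0.195 over the settings. ESRP2 was at -0.27 (SE 0.05, edgeR adjusted p = 0.00140) and was lost on the TPM scales.

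Genes used as mesenchymal markers moved in both directions. Of 9 tested, 4 were higher (44.4%), 2 were lower (22.2%) and 3 did not pass, beside 19.5% higher and 17.6% lower of all genes, with a median of 0.32. TAGLN, an actin-binding protein of smooth muscle, rose from 3.31 ± 0.664 to 7.11 ± 0.802 CPM, a log2 fold change of 1.10 (SE 0.15, edgeR adjusted p = 8.48e-05). FN1, which encodes fibronectin, rose by 0.47 (SE 0.06, edgeR adjusted p = 3.88e-05). ITGA5, the alpha subunit of the fibronectin receptor, was at -0.72 (SE 0.10, edgeR adjusted p = 6.87e-05), and at -0.82 without M5 replicate 1. TGFBI and LOXL2 were the other genes that rose, by 0.32 and 0.22, and the LOXL2 call was lost under some settings, with adjusted p up to 0.103. VIM, which encodes vimentin, was not tested, with 0 to 1 reads in the M5_O5 libraries and 2 to 10 in the M5 libraries.

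Among factors that act on CDH5 in endothelium and partners of VE-cadherin, the genes that passed the test were lower in M5_O5. Of 10 genes 8 were listed and 4 were tested, of which 0 were higher, 2 were lower (50.0%) and 2 did not pass, beside 19.5% higher and 17.6% lower of all genes. ETS1, an ETS factor, fell from 350 ± 14.1 to 215 ± 8.40 CPM, by 0.70 on the log2 scale (SE 0.05, edgeR adjusted p = 9.57e-07). PTPRB, the phosphatase that associates with VE-cadherin, was at -0.28 (SE 0.06, edgeR adjusted p = 0.00204), a call that was lost on the TPM scales. Without M5 replicate 1 it was at -0.31. The endothelial ETS factors ERG, at 2 to 9 reads, and FLI1, at 3 to 7 reads, were too low to be tested.

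**Figure D4:**
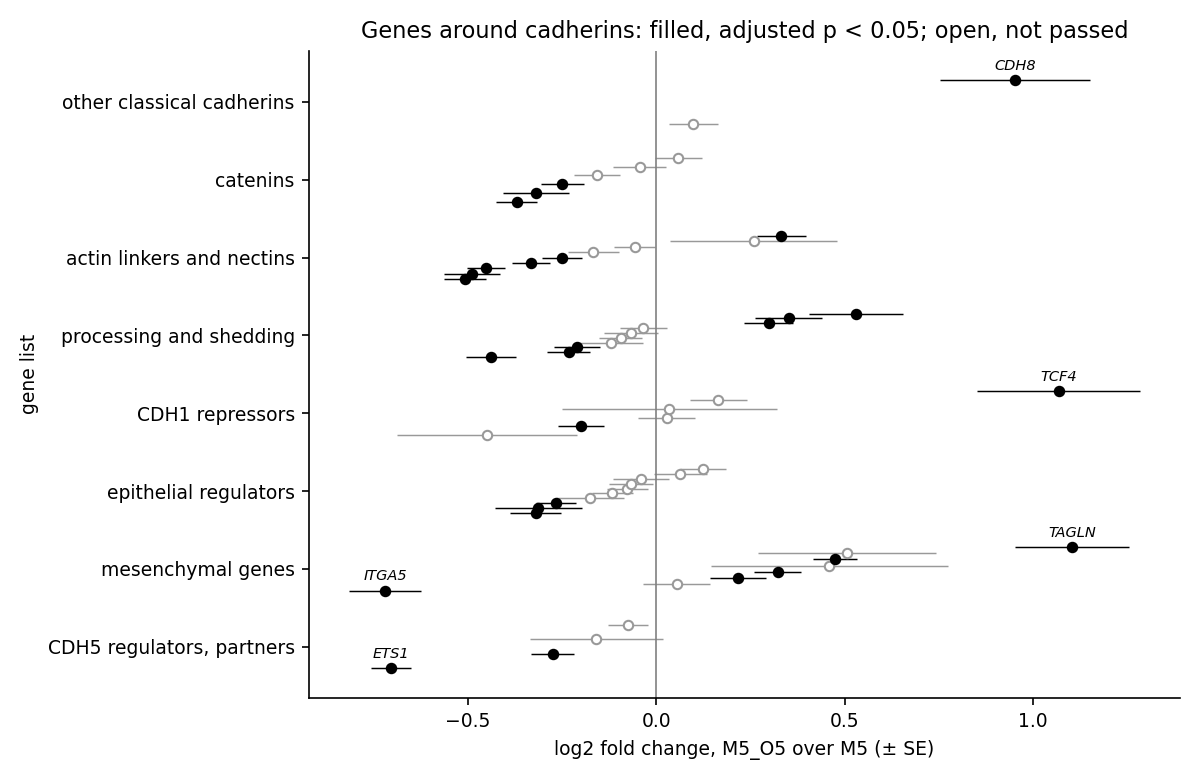
Log2 fold change of M5_O5 over M5 ± SE for the tested genes reported here from 8 lists around the cadherins (vertical axis), filled where the edgeR adjusted p was under 0.05 and open where it was not; genes beyond 0.6 that passed are named. The 3 catenins that passed and 5 of the linkers and nectins lie left of 0 with filled points, CDH8, TCF4 and TAGLN lie near 1, and the CDH5 regulator ETS1 lies at -0.70.

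Over the 7 lists other than the cadherins, 66 of 68 genes were listed and 55 were tested. Of these 9 were higher (16.4%) and 20 lower (36.4%), beside 19.5% and 17.6% of all genes tested, and the median was -0.10. The split depended on scaling, and so did that of all 12434 genes tested, with 2420 higher and 2192 lower in the main fit. With library size alone 14 partner genes were higher and 16 lower, beside 3858 and 1008 of all genes. On the log2(TPM + 1) scale 11 were higher and 12 lower, beside 3261 and 761 of all genes.

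Because CDH5 is an endothelial gene, markers of endothelial cells were examined beside it. Of 20 such markers 15 were listed and 3 were tested, and 10 had at most 10 reads in any library. PECAM1, CLDN5 and TEK, which define endothelium, had at most 1 read in any library, and VWF had 1 to 12. The summed level of the list was 12.2 to 16.8 TPM in the M5_O5 libraries and 10.1 to 10.9 TPM in the M5 libraries, and no listed marker was at 0 in every library. Of the 3 tested markers 1 passed. EGFL7, a secreted vascular factor, was the most abundant, at 4.26 to 11.2 TPM, and rose by 0.75 on the log2 scale (SE 0.17, edgeR adjusted p = 0.00360), with 35 to 50 reads in the M5 libraries and 66 to 112 in the M5_O5 libraries. MMRN2, an extracellular matrix protein of vessels with 124 to 179 reads, was at -0.30 (SE 0.12, edgeR adjusted p = 0.0628), and ROBO4, an endothelial guidance receptor, at 0.32 (SE 0.19, edgeR adjusted p = 0.204). The part of this list in the CDH5 difference was not tested, and in these bulk libraries more cells with CDH5 transcripts and more transcripts per cell cannot be told apart. Fibroblast markers summed to 10.3 to 10.8 TPM in the M5_O5 libraries and 13.1 to 15.4 in the M5 libraries, led by COL1A1 in 8 listed genes. Melanocyte markers summed to 1.14 to 1.5 and 0.90 to 1.16 TPM, over 6 listed genes in which PMEL had 0.30 to 0.51 TPM. Keratinocyte markers summed to 19677 to 23323 and 22399 to 24200 TPM.

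**Figure D5:**
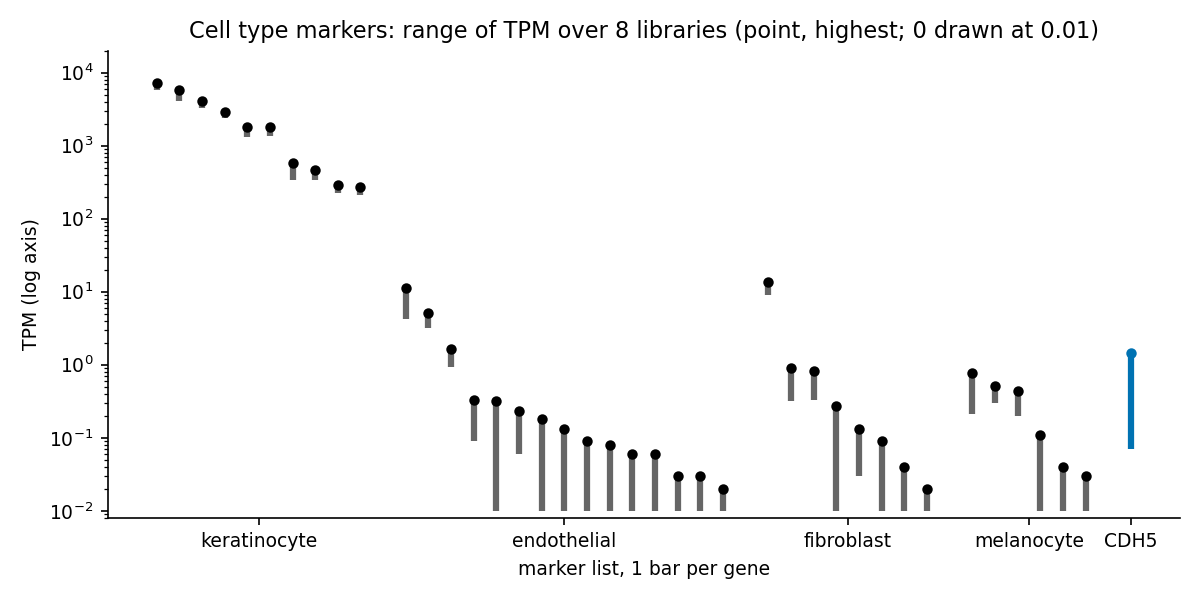
Range of TPM over the 8 libraries (log axis, values of 0 drawn at 0.01) for each listed marker of 4 cell types and for CDH5, with a point at the highest library. Keratinocyte markers lie highest, most endothelial markers lie below 1 TPM, and CDH5 reaches 1.44 TPM.

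The tested genes whose pattern over the 8 libraries was most like that of CDH5 were TMEM62, ACAT1, SLCO2A1, SPA17 and SERPINB7, each with Pearson's r of at least 0.99 in log2 CPM. The 8 libraries fall into 2 groups, which alone gives a high r to a gene that differs between them. After removal of the group means r was 0.93, 0.92, 0.87, 0.79 and 0.81, but the genes were picked out of 12434 for a high r in these same libraries, so these values are part of the choice and check nothing. CDH5 itself had only 3 to 7 reads in each M5 library. SLCO2A1, a prostaglandin transporter, had the largest fold change of the 5, from 2.32 ± 0.466 to 13.7 ± 1.08 CPM, a log2 fold change of 2.56 (SE 0.14). ACAT1, a mitochondrial thiolase, had 16.7 ± 1.42 and 30.1 ± 1.73 CPM. SERPINB7, a protease inhibitor of the epidermis, was the most abundant at 114 ± 3.55 and 169 ± 5.29 CPM (SD, n = 4 for each value).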

How the data were processed

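RNA-seq was done on 8 HaCaT libraries, 4 per title, prepared with a SMARTer mRNA kit. The authors deposited 1 table of estimated counts, TPM and FPKM per transcript, and 53.8% of the deposited count values were fractional. The methods name HISAT2 and StringTie. The labels name HISAT2 2.1.0, Bowtie2 2.2.5, RSEM 1.2.8 and the mouse build mm10, whereas the identifiers are human, so the build behind the table could not be settled. Strand in counting is not given in the sources used here.

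Estimated counts were summed per Entrez gene over 86639 transcripts, including 4181 further placements, to 17131 genes, and rounded. Rows without a symbol held at most 0.0201% of counts. After edgeR's filter on low counts 12434 genes were tested for M5_O5 against M5 with edgeR 4.0.16 (R 4.3.3; TMM scaling, quasi-likelihood test, Benjamini-Hochberg adjustment over all genes tested). Log2 CPM for correlations used a prior count of 2. DESeq2 1.42.0 and limma 3.58.1 on log2(TPM + 1) and log2(TPM + 0.1) were alternatives, and levels in FPKM were compared with those in TPM. Scripts were tested on simulated data. Depth is 13708055 to 16922693 counts per library, and floors cover counting error only.

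The cadherins and all lists were chosen with earlier results of these data known. Named genes were the 8 cadherins, 4 catenins (CTNNA1, CTNNB1, CTNND1 and JUP), at most 4 genes per list by fold change at an adjusted p under 0.05, the 5 genes most correlated with CDH5, and the most abundant gene of each marker list. AJUBA, TJP1, ADAM10, ADAM17, NCSTN, APH1A, PSENEN, TGFBI, LOXL2, CDH24, SNAI2, MMRN2 and ROBO4 were named after their values were seen. So were the keratinocyte markers other than KRT17, the neighbours and the genes named for having few or no reads. A few list genes are not reported here, although the counts and medians over lists include them.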

Additional observations from a re-analysis of the deposited data

Results flagged for a closer look

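In a group of 4 libraries, a library was marked when its gap to the nearest other took up most of the range of the group (Dixon's test at the 95% level). Of 64 groups checked, 8 had such a library, where chance gives about 3.2. M5 replicate 1 was the marked library for CDH1 at 557.03 CPM (603.55 to 610.63 in the others), CTNNB1 at 320.23 (372.16 to 377.81), ITGA5 at 1138.5 (1500.5 to 1565.5) and PTPRB at 51.024 (55.773 to 56.531). M5 replicate 3 was marked for LIMA1 at 537.93 CPM (564.59 to 568.7). M5_O5 replicate 1 was marked for ELF3 at 288.9 CPM (328.89 to 334.96) and OVOL2 at 5.2896 CPM (6.8154 to 6.8933). M5_O5 replicate 3 was marked for CDH6 at 0.059264 CPM, which is 1 read beside 0 in the other libraries of the group.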

How the results depend on the processing

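With library size alone, the log2 fold change was 0.0367 for CDH1 and 0.3737 for CDH13, 14 partner genes were higher, and over all genes 3858 were higher and 1008 lower. On the log2(TPM + 0.1) scale CDH1 was at 0.0460, CDH5 at 2.6396 and CDH13 at 0.3745, with 12 partner genes and 768 of all genes lower. On the log2(TPM + 1) scale CDH1 was at 0.0458, CDH2 at 0.6540, CDH5 at 1.0153 and CDH13 at 0.3708, with 12 partner genes lower, 761 of all genes lower and 144 at least 2-fold higher. The pseudocount shrinks low genes by construction. With single libraries left out, the ranges were -0.1109 to -0.0640 for CDH1, 1.9054 to 2.2672 for CDH2, -0.2623 to -0.1464 for CDH3, -0.0882 to 0.0304 for CDH4, 2.9881 to 3.4186 for CDH5 and 0.2322 to 0.3134 for CDH13. The partner genes gave 8 to 9 higher and 18 to 22 lower, and all genes 1902 to 2872 higher, 1676 to 2504 lower and 334 to 465 at least 2-fold higher. A minimum of 10 counts in every library gave no value for CDH2 and CDH5. Same-numbered libraries did not deviate together (r of 0.2095, 0.0986, -0.0036 and 0.0130), so the numbers do not pair them. A replicate block gave 3.1879 for CDH5, 2.0860 for CDH2 and -0.1555 for CTNNB1, which then passed, and 9 partner genes higher and 21 lower. Of the values of single named genes under alternatives, 358 kept their direction and their side of the threshold, 23 no longer passed and 3 newly passed. Depth limits CDH2, CDH5, CDH6 and CDH11, and the cause of the differences between settings was not tested.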

Other observations

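The protein-coding genes that lie next to the cadherins in the RefSeq gene order were examined. On chromosome 16, CDH5 lies between CDH11 and BEAN1, and CDH8 is the next gene beyond CDH11. BEAN1, on 5 to 13 reads, was at a log2 fold change of -0.40 (SE 0.32, edgeR adjusted p = 0.355). CDH3 and CDH1 lie next to each other on the same chromosome. Their outer neighbours were ZFP90, which rose by 0.41 (SE 0.09, edgeR adjusted p = 0.00382), and TANGO6, at 0.35 (SE 0.12, edgeR adjusted p = 0.0313, up to 0.101 under other settings). DSC3, which encodes the desmosomal cadherin desmocollin-3 and lies next to CDH2 on chromosome 18, was at -0.35 (SE 0.08, edgeR adjusted p = 0.00431, up to 0.185 under other settings). The neighbours of CDH13, MPHOSPH6 and HSBP1, were at -0.09 (SE 0.08, edgeR adjusted p = 0.363) and -0.08 (SE 0.06, edgeR adjusted p = 0.311).

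Of the low-count marker genes, COL1A2 had 0 reads in every M5_O5 library and 1 to 14 in the M5 libraries, and COL3A1 had 0 and 2 to 5 reads. COL1A1, the abundant member of that list, fell by 0.58 on the log2 scale (SE 0.09, edgeR adjusted p = 1.68e-04). Among the 10 keratinocyte markers, KRT16, a keratin of hyperproliferative epidermis, fell most, by 0.51 (SE 0.07, edgeR adjusted p = 5.8e-05). KRT14 and LAMB3 fell by 0.40 and 0.38 (edgeR adjusted p = 8.7e-04 and 0.00432). TP63, SFN and PERP fell by 0.29, 0.29 and 0.25 (edgeR adjusted p = 8.3e-04, 0.0109 and 0.0252). KRT5, KRT6A, KRT17 and DSG3 did not pass. Of all genes tested, 17.6% were lower.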
